A study of Danio rerio with 4 samples.

Results

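The proteasome is the protease complex that degrades ubiquitin-tagged proteins in the cytosol and nucleus. Its core particle is a barrel of alpha subunits (psma genes) and beta subunits (psmb genes), and some of the beta subunits carry the active sites. The regulatory particle caps the barrel: its base holds a ring of ATPases (psmc genes) that unfold substrates and, with its lid, non-ATPase subunits (psmd genes) that bind and remove ubiquitin. Other activators of the core (psme genes), the inhibitor-like protein PI31 (psmf1) and assembly chaperones of the core (psmg genes) complete the set.

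Proteasome genes were chosen by symbol, as those that begin with psm, one letter from a to g and a digit in the platform annotation. They were 55 of 15528 genes with a symbol, with 69 of 43603 probes. Of these, psmc3ip, for a partner of a proteasome ATPase that is known from meiotic recombination in mammals, and psme3ip1, for a partner of psme3, are named after a subunit but encode none. They were kept apart, which left 53 genes and 66 probes. The core particle had 22 genes with 24 probes, and the regulatory particle 23 genes with 31 probes.

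RNA from pooled zebrafish hearts, dissected by hand at 21 to 23 hours post fertilization (hpf), was measured on single-colour Agilent arrays. The Bmp2b group (2 arrays) came from transgenic embryos of the line Tg(hsp70l:bmp2b)fr13, in which the heat shock promoter hsp70l drives the BMP ligand gene bmp2b throughout the embryo and not in the heart alone. The wild-type group (2 arrays) came from wild-type embryos. Both groups were heat-shocked at 18 hpf for 30 min at 37 °C, so every array carries the heat shock itself, and no array without it was analysed here. The question is how heart transcripts differ when Bmp2b is in excess.

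Values are log2 intensities after background correction and quantile normalization, and a difference is the Bmp2b mean minus the wild-type mean. The raw median intensity of the 69 probes was 6048 and 6119 in wild type but only 857 and 2486.5 on the first and second Bmp2b array, and 57.4%, 57.1%, 34.1% and 46.2% of all probes lay above background. Transcripts of bmp2b were higher on both Bmp2b arrays (13.74 and 14.03, against 7.86 and 8.09 in wild type). Of 9 heart muscle markers with a probe, 8 were above background on all 4 arrays; myl4 was not above it on any. Over 25 probes with 5 spots each, the root mean square distance of the wild-type arrays was 0.0711 log2 units, less than the 0.118 that the spread between spots gives, whereas the Bmp2b pair had 0.896 and 0.120. The wild-type pair may therefore amount to 1 sample, and each count of calls is given with their mean counted as 1 sample too. The Bmp2b arrays shared slide 3 and the wild-type arrays lay on slides 1 and 2, so genotype and slide cannot be told apart. The labels do not say that samples came from separate clutches, and p-values measure only the spread between these arrays. In pooled hearts, fewer cells of a type and less RNA per cell cannot be told apart.

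Transcripts of some regulatory subunits and of the activator gene psme4b were lower in Bmp2b hearts, while those of the core particle did not change past the threshold in either direction. Of 60 proteasome probes tested, 9 were lower (15.0%), 0 were higher and 51 did not pass (limma, Benjamini-Hochberg adjusted p below 0.05 over 24454 probes). Among all probes tested, 9.03% were lower and 6.82% higher; among those with a mean log2 intensity of 10 or more, where most proteasome probes lie, 9.59% were lower. The probes that fell were 8 of 30 in the regulatory particle, 1 of 11 among activators, inhibitor and assembly genes and 0 of 19 in the core particle. At an unadjusted p below 0.05 there were 16 lower and 8 higher probes, where 21.0% and 15.6% of all probes passed that limit, and the 8 higher ones included 5 of the core particle. By gene, with the brightest probe standing for it, 6 of 48 genes fell and 0 rose, where of all 11376 genes 8.22% were lower and 1024 were higher. The genes that fell were 5 of 23 in the regulatory particle, or 4 of 20 without the assembly chaperones of the psmd class. They were 1 of 8 among activators, inhibitor and assembly genes and 0 of 17 in the core particle.

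These calls depended on counting both wild-type arrays as samples. With the wild-type mean counted as 1 sample, limma called 0 of the 60 probes, where 1 of all probes passed (0.00409%), and also 0 with limma's trend and robust options, which let the expected variance depend on intensity, where 0.311% of all probes were higher and 0.462% lower; the lowest adjusted p of a proteasome probe was 0.222 and 0.0518 in these fits. Leaving out 1 array leaves 1 sample in a group. The spread is then set by the other pair alone, so no count of calls is read from those fits. A random effect of slide, its correlation taken as 0.5, also left 0 of the 60 probes called, where 0.00409% of all probes passed. In what follows, "fell" means past the threshold in the fit of all 4 arrays.

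**Figure D1:**
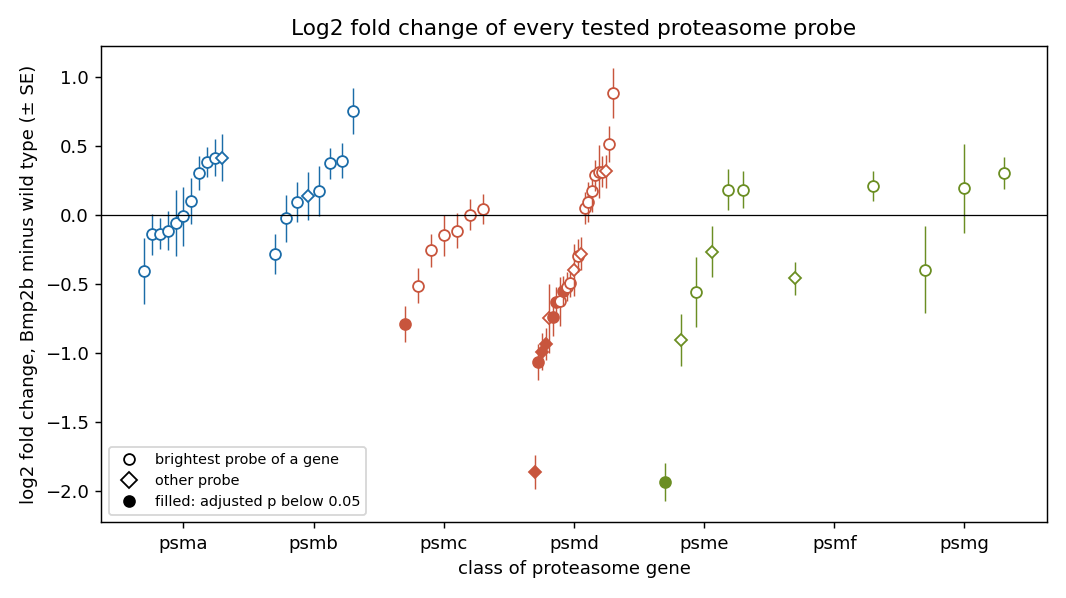
Log2 fold change (Bmp2b minus wild type, y axis, bars are standard errors from limma) of each of the 60 tested proteasome probes, grouped by class on the x axis; circles are the brightest probe of a gene, diamonds other probes, and filled symbols have an adjusted p below 0.05. The 9 filled symbols lie in the psmc, psmd and psme classes and all are below 0, while the 19 open psma and psmb symbols lie between -0.40 and 0.75.

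The largest fall was that of psme4b, which encodes an activator (PA200 in mammals) that caps the core without ATPases and is known from acetylated histone turnover in mammals. It read 12.77 and 12.56 in wild type and 10.80 and 10.67 in Bmp2b hearts. Both Bmp2b arrays lay below both wild-type arrays, and the gap between groups was about as large on either Bmp2b array. The probe was 3.81-fold lower (log2 fold change -1.93 ± 0.14, SE; adjusted p = 0.0177), and it also passed with each of the 4 other scalings tried (-2.21 to -1.94). It is the only psme4b probe measured, and with the wild-type mean as 1 sample its adjusted p was 0.222, or 0.0518 with trend and robust.

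Of the other activators, psme3 encodes the nuclear activator (PA28 gamma), and psme1 and psme2 encode the subunits of the interferon-inducible activator. The brightest of 3 psme3 probes read 11.92 and 12.07 in wild type and 11.11 and 11.75 in Bmp2b hearts, a difference of -0.56 ± 0.25 (adjusted p = 0.198). The other psme3 probes differed by -0.26 and -0.91, the latter with an adjusted p of 0.0503, just outside the threshold. The latter probe passed with 1 of the 4 other scalings. All 3 psme3 probes read lower on both Bmp2b arrays than on either wild-type array. The probes of psme1 and psme2 had differences of 0.18 ± 0.15 and 0.18 ± 0.14 (adjusted p = 0.431 and 0.390); psme1 was above background on 3 arrays, with raw intensities of 40, 36, 34 and 52.

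**Figure D2:**
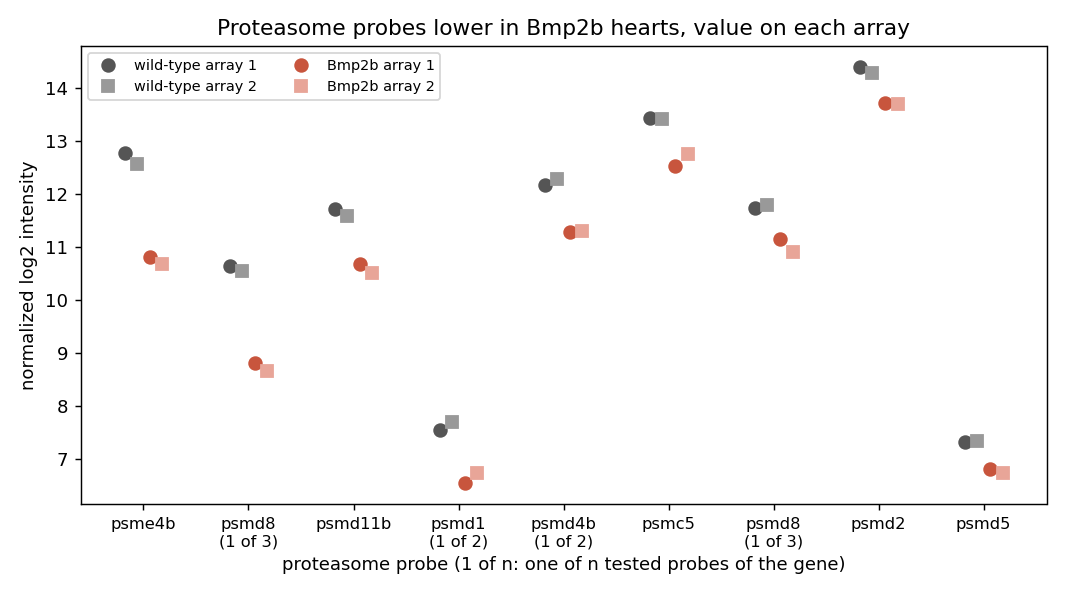
Normalized log2 intensity (y axis) of the 9 proteasome probes that fell, with 1 symbol per array: grey for wild type, red for Bmp2b, circles for array 1 and squares for array 2. In every probe shown both red symbols lie below both grey ones; psme4b and a psmd8 probe have the widest gaps, with log2 fold changes of -1.93 and -1.86.

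Of the 7 measured genes of the ATPase ring 1 was lower, where 8.22% of all genes tested were lower. psmc5 read 13.43 and 13.41 in wild type and 12.52 and 12.74 in Bmp2b hearts. Its groups did not overlap, and it fell by 0.79 ± 0.13 (adjusted p = 0.0369; 0.0793 with scaling to the 75th percentile and 0.0692 with the processed intensities). psmc3 read 13.89 and 13.93 against 13.30 and 13.50, a difference of -0.51 ± 0.13 that did not pass (adjusted p = 0.0688). The other ATPase genes psmc1a, psmc1b, psmc2, psmc4 and psmc6 lay between -0.26 and 0.04 with adjusted p from 0.203 to 0.991, and psmc1a and psmc2, at 0.04 and 0.00, were negative when scaled to the 75th percentile, psmc2 also with the processed intensities. The products of these genes serve the same ring, with psmc1a and psmc1b as duplicates, and their measured differences ranged from -0.79 to 0.04.

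Among the psmd genes of the base, psmd2 encodes a large scaffold subunit that docks ubiquitin-binding shuttles. It read 14.39 and 14.27 in wild type and 13.71 and 13.69 in Bmp2b hearts. The Bmp2b arrays were both lower and close to each other, and psmd2 fell by 0.63 ± 0.11 (adjusted p = 0.0407; 0.0588 with a smaller offset of 16 in the background correction, 0.0776 with scaling to the 75th percentile and 0.0671 with the processed intensities). The other large scaffold gene, psmd1, gave opposite readings by probe. Its brighter probe read 14.59 and 14.63 against 14.84 and 14.57, with groups that overlapped (0.09 ± 0.14, adjusted p = 0.672), and this sign turned with scaling to the 75th percentile. Its dimmer probe read 7.55 and 7.70 against 6.54 and 6.73, was below background on Bmp2b array 1, and fell by 0.99 ± 0.14 (adjusted p = 0.0275), or by 0.52 with scaling to the 75th percentile (adjusted p = 0.266).

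A ubiquitin receptor of the base is encoded by the duplicates psmd4a and psmd4b, which had differences of opposite sign on their brightest probes. Both psmd4b probes read lower. The brighter one read 13.33 and 13.35 against 12.87 and 12.83 and missed the threshold (-0.49 ± 0.11, adjusted p = 0.0555), but passed with 1 of the 4 other scalings. The dimmer one read 12.17 and 12.28 against 11.29 and 11.30 and fell by 0.93 ± 0.11 (adjusted p = 0.0238, and 0.0617 with scaling to the 75th percentile). The brighter psmd4a probe read 13.65 and 13.74 against 14.01 and 13.96, above wild type on both arrays, without passing (0.29 ± 0.11, adjusted p = 0.157). Its dimmer probe had a difference of -0.75 ± 0.25 (adjusted p = 0.119), so the probes of this gene disagree in sign.

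In the lid, psmd11b and psmd8 fell. psmd11b, for a structural lid subunit, read 11.72 and 11.58 in wild type and 10.68 and 10.50 in Bmp2b hearts. It was 2.09-fold lower (-1.06 ± 0.13, adjusted p = 0.0244; 0.0560 with the processed intensities). Its duplicate psmd11a read 11.85 and 11.89 against 11.34 and 11.36, a difference of -0.52 ± 0.11 just outside the threshold (adjusted p = 0.0505). psmd11a passed with cyclic loess (limma, adjusted p = 0.0370) and without a filter on dim probes (adjusted p = 0.0320). psmd8 encodes another structural lid subunit and had 3 probes, all lower on both Bmp2b arrays. The brightest read 11.74 and 11.78 against 11.14 and 10.90 and fell by 0.74 ± 0.14 (adjusted p = 0.0418; 0.0545 with an offset of 16, 0.0627 with scaling to the 75th percentile and 0.0809 with the processed intensities). The dimmest read 10.63 and 10.54 against 8.80 and 8.65 and was 3.62-fold lower (-1.86 ± 0.12, adjusted p = 0.0167), and passed with each of the 4 other scalings. The remaining psmd8 probe differed by -0.28 ± 0.12 (adjusted p = 0.181), so the probes of this gene differ widely in size and not in sign. The platform annotation does not assign all 3 to the same sequence record, so they may not read the same transcript.

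The other lid genes did not pass, and most read level with wild type or above it. psmd13 read 14.21 and 14.29 in wild type and 14.67 and 14.87 in Bmp2b hearts (0.52 ± 0.13, adjusted p = 0.0702), and it passed with 1 of the 4 other scalings. psmd14, the metalloprotease that cuts ubiquitin chains off substrates, read 14.04 and 14.03 against 14.12 and 14.58 (0.31 ± 0.19, adjusted p = 0.310). psmd6 and psmd3 had differences of 0.31 and 0.05, the latter with a sign that turned with scaling to the 75th percentile and with the processed intensities. psmd7, which pairs with psmd14, had one probe at -0.30 and one at 0.32, with groups that did not overlap in either (adjusted p = 0.161 and 0.146). psmd12 was above background on the wild-type arrays alone, with raw intensities of 49 and 51 against 39 and 44 where background was 50 and 48, so no difference is given for it. It stays among the 30 tested regulatory probes and in the median of 23 regulatory genes.

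The psmd class also holds the assembly chaperones psmd5, psmd9 and psmd10, which help build the base and are not part of the finished particle. psmd5 read 7.32 and 7.33 against 6.81 and 6.74 and fell by 0.55 ± 0.11 (adjusted p = 0.0470), but it was below background on Bmp2b array 1, and its difference ranged from -1.87 with the processed intensities to -0.11 with scaling to the 75th percentile (adjusted p = 0.0565 and 0.816; 0.0875 with cyclic loess and 0.0588 with trend and robust). psmd10, known as gankyrin, had differences of -0.63 and -0.40 on its 2 probes (adjusted p = 0.0876 and 0.211). psmd9 went the other way: it read 11.63 and 11.65 in wild type and 12.31 and 12.74 in Bmp2b hearts. At 0.88 ± 0.18 it had the largest positive difference of any proteasome probe, just outside the threshold (adjusted p = 0.0507). It passed with cyclic loess (adjusted p = 0.0452) and when each probe had to exceed background on every array (adjusted p = 0.0435).

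The core particle had 17 tested genes with 19 probes, and 0 passed; for 7 probes both Bmp2b arrays lay above both wild-type arrays and for 3 below, where 28.9% and 38.7% of all probes did so. In the regulatory particle these counts were 7 above and 18 below of 30 probes. Of the alpha subunits, psma5 read 13.35 and 13.37 in wild type and 13.74 on both Bmp2b arrays (0.38 ± 0.11, adjusted p = 0.0845), and it passed without a filter on dim probes (adjusted p = 0.0465). psma2a had 2 probes at 0.41 and 0.42 (adjusted p = 0.115 and 0.170), which is the closest match between probes of one proteasome gene, and psma1 lay at 0.30. psma6a read 12.90 and 12.95 against 12.21 and 12.82, the lowest difference of the core (-0.40 ± 0.24, adjusted p = 0.296), and here the Bmp2b arrays lay further apart than the groups' nearest arrays. The other alpha genes psma2b, psma3, psma4, psma6b, psma6l and psma8, the last known from testis in mammals, lay between -0.14 and 0.10. Of these, psma6l was above background on 3 arrays, with raw intensities of 40.5, 39, 26 and 49. Its difference of -0.06 therefore does not show an unchanged level, though it enters the core median. The signs of psma4, psma6b, psma6l and psma8 turned in at least 1 of the other scalings.

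Of the beta subunits, psmb4 read 14.06 and 13.99 in wild type and 14.59 and 14.96 in Bmp2b hearts on its brightest probe. Its difference of 0.75 ± 0.17 was the highest of the core and did not pass (adjusted p = 0.0575), though it did with cyclic loess (adjusted p = 0.0423); the other psmb4 probe read 14.19 and 14.17 against 14.13 and 14.51 and lay at 0.14, with a sign that turned with scaling to the 75th percentile and with the processed intensities. psmb3 and psmb2, for structural subunits, had differences of 0.39 and 0.37 (adjusted p = 0.110 and 0.0930). Of the standard catalytic subunit genes, psmb6 and psmb7 had differences of 0.17 ± 0.18 and -0.28 ± 0.14 (limma, adjusted p = 0.537 and 0.235). No probe carried the symbol psmb5, so the standard catalytic genes are not all covered. A further structural subunit gene, psmb1, lay at -0.02, and the signs of psmb6 and psmb1 turned in 1 of the other scalings each.

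Of the inducible catalytic subunits that replace the standard ones in immune cells, psmb8a and psmb9a were not above background and psmb10 was. psmb8a and psmb9a had raw intensities of 19, 19, 27 and 24, and of 25, 25, 25 and 26, where background was set at 33, 32, 50 and 48 on wild-type arrays 1 and 2 and Bmp2b arrays 1 and 2. psmb11a, whose mammalian counterpart acts in the thymus, and the beta-type gene psmb13a were likewise not above background on any array, and psmb12 was above it on wild-type array 2 alone, by 33 against 32. psmb10 was above background on all 4 arrays, with log2 intensities of 8.14 and 8.08 against 8.07 and 8.34, and the groups overlapped (0.09 ± 0.14, adjusted p = 0.671). None of these genes other than psmb10 entered the test, and a second psmd13 probe was also too dim for it.

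Taken by gene, the median log2 fold change was 0.09 for 17 core genes and -0.15 for 23 regulatory genes, where the median of all 11376 genes tested was 0.01. Without the assembly chaperones the regulatory median was -0.13 over 20 genes. On Bmp2b array 1 the core median was -0.07 and the regulatory median -0.22, and on array 2 they were 0.25 and -0.05, so the core median had the higher value on both arrays and a different sign on each. The core median lay above the regulatory one by 0.24, and by 0.14 to 0.27 with the 4 other scalings. Scaling to the 75th percentile moved the median of all genes to 0.14, and there the core median was -0.13 and the regulatory one -0.41, which is 0.27 and 0.54 below all genes, so the sign of the core median depends on the scaling. No test was made of the difference between the particles, since the genes were chosen with earlier results known and the samples number 2 against 2.

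**Figure D3:**
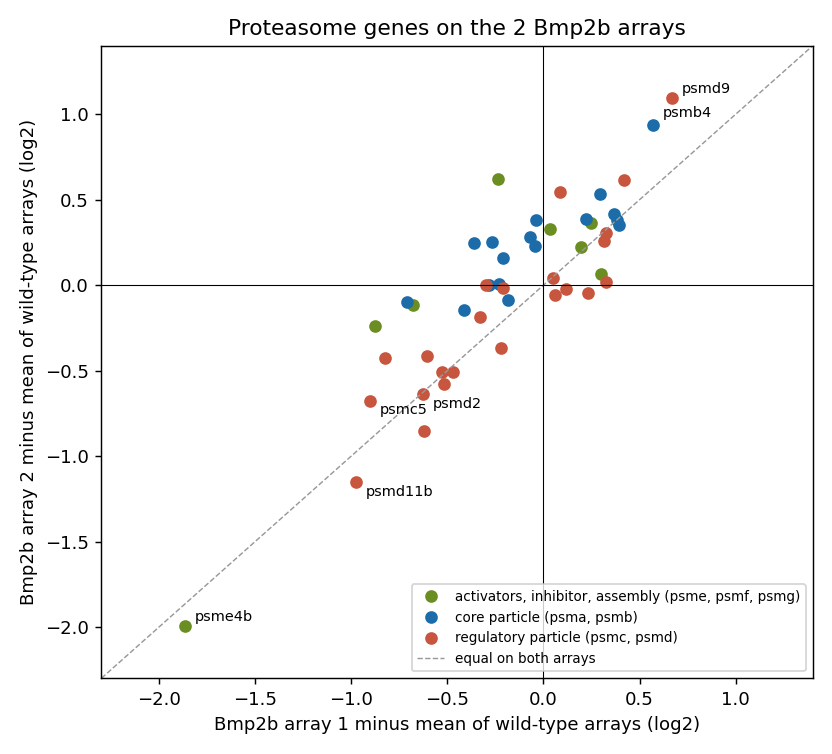
Difference of each Bmp2b array from the mean of the wild-type arrays (log2; array 1 on the x axis, array 2 on the y axis) for the 48 proteasome genes with a tested probe, coloured by particle. Core genes sit mostly above the dashed line of equality, with medians of -0.07 and 0.25, and psme4b and psmd11b are the lowest on both arrays.

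The duplicated subunit genes, which zebrafish have where mammals have 1 gene, could be compared in 5 pairs by their brightest probes. The differences were 0.41 for psma2a and -0.14 for psma2b, and -0.40 for psma6a and -0.11 for psma6b. In the regulatory particle they were 0.04 for psmc1a and -0.26 for psmc1b, 0.29 for psmd4a and -0.49 for psmd4b, and -0.52 for psmd11a and -1.06 for psmd11b. The b copy had the lower value in all pairs but psma6, and in these 5 pairs psmd11b alone passed. Differences within pairs were not tested, and sequences of duplicates can be alike enough for a probe to read both.

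Of 10 proteasome genes with more than 1 tested probe, 4 had probes of opposite sign: psmd1, psmd4a, psmd7 and psmf1. Among these 10, the probes of psmb4 and those of psmd8 are annotated to more than 1 sequence record. For psmf1, the gene of PI31, one probe read 11.04 and 10.99 against 11.21 and 11.23 and the other 8.52 and 8.47 against 8.10 and 7.97, with differences of 0.21 and -0.46 (adjusted p = 0.239 and 0.0735), and the first was negative when scaled to the 75th percentile. The brightest probe of a gene had a higher difference than the dimmest in 7 of 10 genes, and the median of brightest minus dimmest over all 10 was 0.53. Of all 4266 genes with several tested probes the brightest was higher in 65.0%, the median over all of them was 0.21, and signs differed in 40.6%. In these 10 genes 3 of the probes that fell were not the brightest of their gene: those of psmd1 and psmd4b and the dimmest of psmd8.

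**Figure D4:**
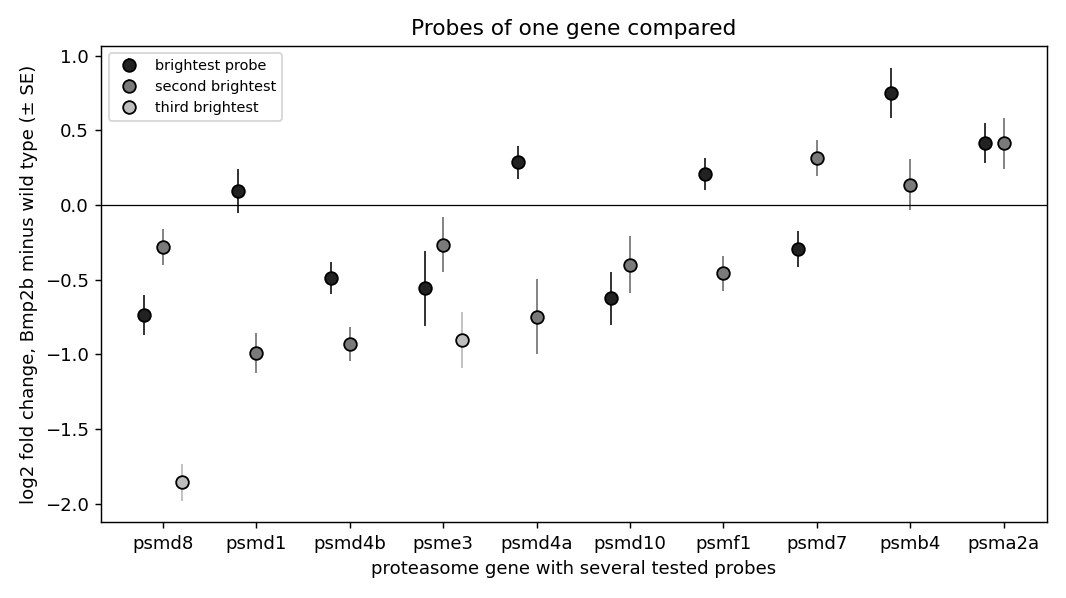
Log2 fold change (y axis, bars are standard errors from limma) of each tested probe of the 10 proteasome genes with several, from the brightest probe (black) to the dimmest (light). The psmd8 probes range from -1.86 to -0.28, and those of psmd1, psmd4a, psmd7 and psmf1 lie on both sides of 0.

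The core assembly chaperone genes psmg1, psmg2 and psmg3 did not pass. psmg3 read 10.28 on both wild-type arrays and 10.52 and 10.64 in Bmp2b hearts (0.30 ± 0.11, adjusted p = 0.144). psmg1 read 8.44 and 7.81 against 7.45 and 8.02 (-0.40 ± 0.31, adjusted p = 0.420), and psmg2 11.26 and 11.14 against 10.97 and 11.82 (0.19 ± 0.32, adjusted p = 0.699; negative with scaling to the 75th percentile). In both of these the arrays of the groups overlapped. The genes set apart at the start did not pass either: psmc3ip lay at -0.12, and the psme3ip1 probes at -0.30 and 0.63 (adjusted p = 0.874, 0.169 and 0.0752).

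**Figure D5:**
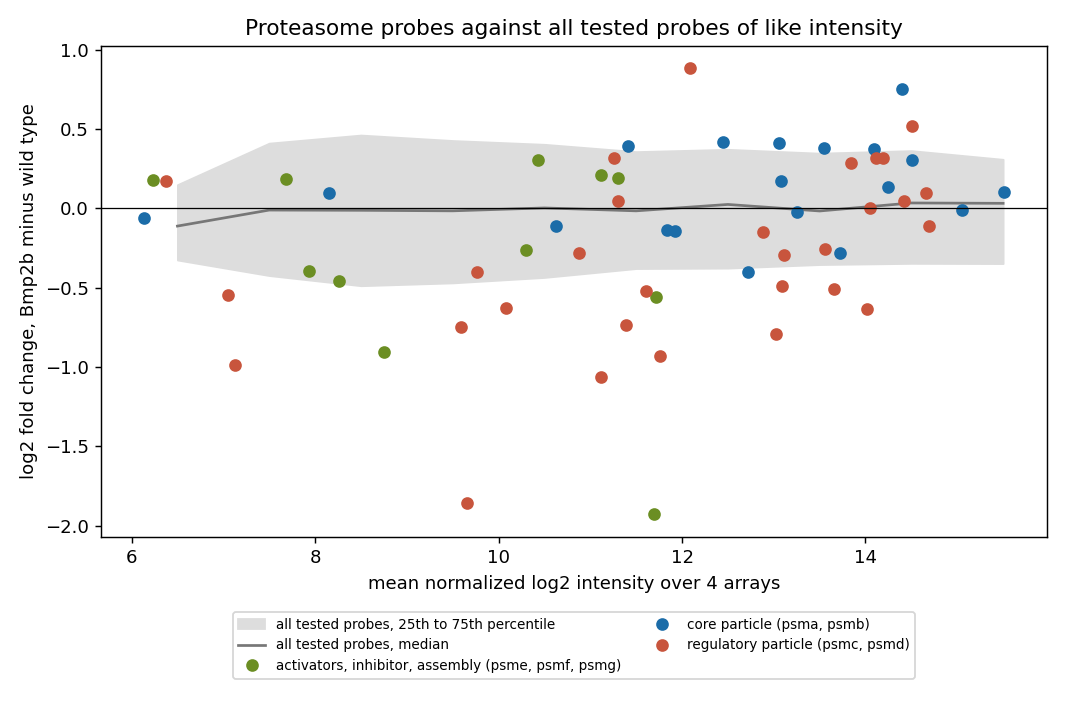
Log2 fold change (y axis) against mean normalized log2 intensity over the 4 arrays (x axis) for the 60 proteasome probes, over the median (line) and the 25th to 75th percentile (grey band) of all tested probes in bins 1 log2 unit wide. The band runs from -0.42 to 0.41 for intensities of 7 to 8 and from -0.35 to 0.36 for 14 to 15, and most core probes lie inside it or near its edge, while psme4b and a psmd8 probe lie far below.

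The remaining proteasome pathway was covered by lists of partners, regulators and ubiquitin genes. Among all 11376 genes tested 8.22% were lower and 1024 were higher, and no list was tested against these shares. Of 10 measured partner genes 0 rose and 2 fell, with a median of -0.45: ecpas, for a scaffold that ties core to cap, fell by 0.95 ± 0.14 (adjusted p = 0.0305) and the ubiquitin-binding zinc finger gene zfand5a by 0.60 ± 0.11 (adjusted p = 0.0419). Dimmer probes of ecpas lay at -0.67 and -0.22 and those of zfand5a at -0.74 and -0.09, and none of these passed. The zinc finger gene zfand2a and the small lid subunit gene sem1 had differences of -0.65 and 0.35 (adjusted p = 0.0546 and 0.119). Of 9 measured regulators of proteasome genes 0 rose and 2 fell, again beside 8.22% lower among all genes, with a median of -0.35. keap1a, for the adaptor that marks Nrf2 for degradation, fell by 0.97 on its representative probe and by 1.41 and 0.73 on its other probes, and ngly1, whose product activates Nrf1 in mammals, fell by 0.80 ± 0.11 (adjusted p = 0.0287). The keap1a probe that fell by 0.73 read 6.41 and 6.29 in Bmp2b hearts. That is below the readings of psmd12 there (6.62 and 6.31), which was not above background. The small Maf factor genes mafgb and maff, whose products pair with Nrf factors, had differences of -0.54 and -0.40 (adjusted p = 0.0629 and 0.130).

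Of 9 ubiquitin and shuttle genes 2 rose and 3 fell, with a median of 0.01, where 935 of all 11376 genes tested (8.22%) were lower and 1024 higher; the same shares stand beside the counts that follow. The polyubiquitin gene ubb fell by 0.95 ± 0.19 and nploc4, a cofactor of the segregase gene vcp, by 1.18 ± 0.13 (adjusted p = 0.0459 and 0.0218). However, nploc4 read only 6.18 and 6.35 in Bmp2b hearts. On Bmp2b array 1 psme1 also read 6.18, with a raw intensity of 34 where background was 50. On array 2 nploc4 lay between psmd12 (6.31, not above background) and psma6l (6.41, above it). The size of the nploc4 fall is therefore uncertain, though it stays among the 3 genes that fell. The shuttle genes went both ways, with rad23ab lower by 1.22 (-1.22 ± 0.21) and rad23b higher by 0.78 ± 0.11, although one of its other probes lay at -0.41 and one at 0.63. The autophagy receptor gene sqstm1, a member of the list but named here after its value was seen, rose by 1.06 ± 0.22 (adjusted p = 0.0491). The CCT chaperonin, another ring of many subunits, had 7 measured genes with 1 lower by its brightest probe (cct6a, -0.89 ± 0.13) and a median of 0.13. Dimmer probes of cct5, cct7 and cct8 also fell, by 1.34, 0.72 and 0.88 (limma, adjusted p = 0.0369, 0.0416 and 0.0376). The brightest probes of cct5, cct7 and cct8 lay at -0.52, 0.13 and 0.33 and did not pass. Among 13 heat shock genes 1 rose and 4 fell, with a median of -0.63, and hsp70l fell by 2.59 while hspb1 rose by 2.86. Lower as well were dnajb1b and bag3, with log2 fold changes of -2.42 and -1.59 on their representative probes. Over all these lists 15 genes passed with the 4 arrays, 4 with scaling to the 75th percentile, 7 with the processed intensities, and 3 with the wild-type mean as 1 sample and trend and robust (0 without these).

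Markers of several tissues moved with the groups or between the Bmp2b arrays. All 3 immune markers, coro1a, lcp1 and mpx, were above background on all 4 arrays and read higher on both Bmp2b arrays without passing (median 0.88, adjusted p from 0.0579 to 0.122); their summed linear level was 5316 and 5145 in wild type and 9439 and 7490 in Bmp2b hearts. The summed level of 9 heart muscle markers was lower on both Bmp2b arrays (813893 and 608446, against 1036440 and 938054). Within this list myh6 rose by 1.94 ± 0.11, while myh7 and the brighter tnnt2a probe fell by 0.73 and 1.14 (limma, adjusted p = 0.0138, 0.0440 and 0.0469). The summed level of 4 skeletal muscle markers was also lower (50504 and 31103, against 55758 and 53016). By far the brightest of these was actc1b (15.73 and 15.65 in wild type), which did not pass (-0.46 ± 0.28, adjusted p = 0.311). mylpfa lay at -0.58 on its brighter probe, and myf5 and myod1 at 0.13 and 0.05. Only 2 of the 4 were above background on Bmp2b array 1. There myf5 and myod1 read 6.28 and 5.96, near the floor, so their differences do not show unchanged levels. The 4 endothelial markers, all above background on all 4 arrays, had a median of -0.52 and summed to 31057 and 31676.5 in wild type and 35708 and 24822 in Bmp2b hearts, so the groups overlapped in their sum. Markers of epidermis and of neural tissue differed widely between the Bmp2b arrays. The summed linear level of 6 epidermal markers was 5045 on Bmp2b array 1 and 76102 on array 2 against 11606 and 11760 in wild type, with cyt1 not above background on any array, and that of 6 neural markers, all above background on all 4 arrays, was 3047 and 12873 against 5593 and 5827. The 4 markers of yolk and endoderm, with ttr not above background on any array, summed to 661 and 2365 against 887 and 901, and the 3 blood markers to 2694 and 1652 against 2620 and 2893. Of the 60 tested proteasome probes 40 were higher on Bmp2b array 2 than on array 1, and the median distance between these arrays was 0.23 log2 units, against 0.05 between the wild-type arrays. Of the probes that fell, psme4b differed from wild type by -1.86 on array 1 and -1.99 on array 2, and psmd11b by -0.97 and -1.15. The part of these tissues in the proteasome values was not tested.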

How the data were processed

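Deposited raw intensity values of 4 single-colour arrays (2 wild type, 2 Bmp2b) were read as scanned with Agilent Feature Extraction, per the labels and file headers; intensities the authors had processed served as an alternative, and how their background was treated is not given in the sources used here. Intensities were corrected with normexp (offset 50), arrays quantile-normalized on the log2 scale, and spots of a probe then averaged, with limma 3.58.1 in R 4.3.3. Probes above background, set at 2 times an array's 5th percentile, on 2 or more of 4 arrays were tested (24454). P-values were two-sided, adjusted by Benjamini-Hochberg over all probes tested (threshold 0.05), and the procedure was tested on simulated data. The brightest probe stood for a gene. The number of arrays limits the precision.

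Members and lists were chosen with earlier results of these data known. Genes with a probe past the threshold, and the 2 with the largest difference per class, were named in full. Up to 4 per pathway list were named by smallest p, apart from sqstm1 and from cct7, which was named for its dimmer probe. Gene symbols came from the platform annotation, and those of all 69 probes matched RefSeq by gene identifier. Sequences and promoters were not analysed here. Alternatives were other scalings, offsets, filters and fits, and leaving out each array. Equal replicate numbers across groups were not taken as pairs. Same-numbered deviations correlated at 0.0935 over 2 pairs, but with 2 arrays per group this value cannot decide whether samples were paired.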

Additional observations from a re-analysis of the deposited data

How the results depend on the processing

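The counts of proteasome calls depended on the fit, while all 9 probes that fell kept their sign with each of the 4 other scalings (quantile replaced by the 75th percentile or cyclic loess, processed intensities, offset 16), as did 46 of 60 tested probes. The lower probes, 9 in the reported fit, were 3 with scaling to the 75th percentile, 4 with the processed intensities, and 0 with wild type as 1 sample (with or without trend and robust) or slide as a random block. The lower genes, 6 in the reported fit, were 2, 1, 0 and 0 in these. Of all probes tested, 9.03% were lower in the reported fit, 1.55% with scaling to the 75th percentile and 6.39% with the processed intensities. Higher proteasome probes, and likewise higher genes, were 3 with cyclic loess and 1 each with no filter or with a filter on all 4 arrays. Of all probes, 8.61%, 3.88% and 11.6% were higher in these fits. Averaging the probes of a gene also gave 1 higher gene, beside 8 lower ones, and no share over all genes is given for that fit. With the replicate block, which the numbers alone do not justify, 1 probe was higher and 6 lower, and 1 gene was higher and 2 lower. Of all probes, 5.51% were higher and 6.99% lower with this block. Pathway genes called, 15 in the reported fit, were 4, 7, 0, 3 and 0 with the 75th percentile, processed intensities, wild type as 1 sample, the same with trend and robust, and slide as a block. The regulatory median was -0.41 with the 75th percentile. Leaving out each array in turn gave 0 to 29 lower and 0 to 22 higher probes, 0 to 20 lower and 0 to 20 higher genes, 0 to 36 pathway genes, core medians of -0.07 to 0.25 and regulatory medians of -0.22 to -0.05. Each fit without an array leaves 1 sample in a group, and the other pair alone sets the spread. Calls among all probes were also far more frequent without a Bmp2b array than in the reported fit. The counts of calls from fits that leave out an array are therefore not read as a proteasome result. The causes of these dependences were not tested.

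Signs turned with scaling to the 75th percentile for psma4 (-0.28), psma6l (1.13), the dimmer psmb4 probe (-0.16), psmb6 (-0.13), psmc1a (-0.21), psmc2 (-0.27), the brighter psmd1 probe (-0.22), psmd3 (-0.22), the brighter psmf1 probe (-0.074) and psmg2 (-0.093). With cyclic loess they turned for psma6l (0.052) and psma8 (0.0047). With the processed intensities they turned for psma6b (0.0057), psmb1 (0.017), the dimmer psmb4 probe (-0.058), psmc2 (-0.064), psmd12 (-0.051, not above background in Bmp2b hearts) and psmd3 (-0.062). Leaving out an array gave ranges across 0 for psma2b (-0.28 to 0.00092), psma4 (-0.071 to 0.28), psma6b (-0.23 to 0.0069), psma6l (-0.36 to 0.24), psma8 (-0.27 to 0.25), psmb1 (-0.21 to 0.16), psmb10 (-0.042 to 0.23), the dimmer psmb4 probe (-0.053 to 0.33), psmb6 (-0.036 to 0.38), psmc2 (-0.055 to 0.059), psmc4 (-0.30 to 0.0024), the brighter psmd1 probe (-0.044 to 0.23), psmd3 (-0.021 to 0.12) and psmg2 (-0.24 to 0.62). None of these probes had passed.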
